A study of Mus musculus with 4 samples.

Results

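The proteasome genes were those whose probe sets carried exactly 1 gene symbol starting with Psma, Psmb, Psmc, Psmd, Psme, Psmf or Psmg and a digit. This rule took 49 of the 18193 genes measured under a single symbol and 103 probe sets, and each gene was read from its probe set with the highest mean. Of the 49, Psmc3ip (a partner of the meiotic recombination machinery) and Psme3ip1 (an interaction partner of Psme3) matched by name only and are not subunits. Of 5 immune genes, 4 were measured, because the probe set listed for Psme2 is shared with the near-identical Psme2b and could not be assigned to either. The samples were 4 arrays of mouse prefrontal cortex RNA. Each array held a pool of 5 mice: 2 pools from mice under repeated social threat, labelled HighThreat, and 2 from control mice, labelled LowThreat. The sources used here do not state strain, age, sex or length of exposure, and no group carried a genetic change or drug by its labels. By the series title, the question was which genes are expressed differently in prefrontal cortex after social threat.

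The proteasome degrades proteins that have been marked with ubiquitin. Its core particle is a barrel of alpha rings, which gate entry, and beta rings, which hold the catalytic sites. A regulatory particle caps the barrel, with a base of ATPases that unfold the substrate and a lid that removes its ubiquitin. Interferon-gamma and related signals replace the catalytic beta subunits by immune ones, Psmb5 by Psmb8, Psmb6 by Psmb9 and Psmb7 by Psmb10, and add the activator cap of Psme1 and Psme2, which favours peptides for presentation on MHC class I. In brain, the constitutive particle serves synaptic protein turnover and the immune form is found mainly in microglia and other non-neuronal cells.

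The 100 bases before the start of 2 immune subunits and of the subunits they replace are shown because the immune and constitutive forms are set under different known regulators. Capitals mark matches to 1 of 4 motifs searched on both strands in the 250 bases before the start (RefSeq, GRCm38.p6).
Psmb8 (chr17:34198095-34198194, + strand): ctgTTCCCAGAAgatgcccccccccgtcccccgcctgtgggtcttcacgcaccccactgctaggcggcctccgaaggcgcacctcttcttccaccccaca
Psmb5 (chr14:54617996-54618095, - strand): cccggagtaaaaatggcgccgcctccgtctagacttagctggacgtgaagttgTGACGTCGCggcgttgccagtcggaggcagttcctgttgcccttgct
Psmb9 (chr17:34187331-34187430, - strand): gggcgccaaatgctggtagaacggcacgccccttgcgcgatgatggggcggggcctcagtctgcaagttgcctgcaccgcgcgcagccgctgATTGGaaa
Psmb6 (chr11:70525257-70525356, + strand): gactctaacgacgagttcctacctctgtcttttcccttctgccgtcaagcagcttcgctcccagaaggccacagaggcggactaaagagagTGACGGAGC
The match in Psmb8 is to TTCNNNGAA, the gamma-activated site that STAT factors bind. The matches in Psmb5 and Psmb6 are to TGACNNNGC, the core of the antioxidant response element bound by Nfe2l1 and Nfe2l2. The match in Psmb9 is to CCAAT, the box bound by NF-Y, on the opposite strand. The pair of Psmb10 and Psmb7 is not shown, and neither gene was among those with a match to any of the 4 motifs. Promoters were found for 41 of the 49 genes, in 44 windows.

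The share of these 44 windows with a motif is set beside that of all 32851 promoters of the same length. TTCNNNGAA was in 2 windows (4.55%, against 7.02% of all promoters), those of Psmb8 and Psmg1. TGACNNNGC was in 5 windows (11.4%, against 10.2%), those of Psmb5, Psmb6, Psmc6, Psmd9 and Psmd12. CCAAT was in 16 windows (36.4%, against 33.8%). The core of the interferon-stimulated response element was in 3 windows (6.82%, against 2.98%), those of Psmb3, Psmd4 and Psmd9, and in none of the 6 windows of the 5 immune genes. A match is a string of letters and not a site of binding.

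No proteasome gene differed between threat and control beyond the test over all probe sets. The 49 log2 differences, threat minus control, ran from -0.34 to 0.25 with a median of 0.05, against a median of 0.02 over all 18193 genes. Of the 49, 32 lay above 0 and 17 below, where 55.7% and 44.3% of all genes did. None reached 1.5-fold, a size reached by 0.896% of all genes. The 95% interval of the difference lay inside 1.5-fold either way in 48 of 49 (98.0%), the exception being Psmb8. It did so in 85.0% of all genes and in 94.0% of the 3209 genes at least as bright as the dimmest constitutive subunit. In limma's test with Benjamini-Hochberg adjustment over 45037 probe sets, 0 probe sets passed an adjusted p of 0.05, and the smallest adjusted p among the 49 genes was 0.43. At an unadjusted p under 0.05 there were 4 genes, Psmb7, Psmc4 and Psmg2 lower and Psmd1 higher, against 10.7% of all genes (5.76% lower and 4.9% higher), 6.76% of the 3209 genes at least as bright as the dimmest constitutive subunit (9.65), and 10.6% of probe sets (4774 of 45037).

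Both threat pools lay above both control pools in 12 of the 49 genes and below both in 7. These are 24.5% and 14.3%, where all genes gave 26.2% and 18.8%, so the share was near or under the background in each direction. Among the 3209 brighter genes the shares were 30.8% and 17.6%. The split between higher and lower depended on the scaling: centring each array on its median gave 20 higher and 6 lower, and cyclic loess gave 8 higher and 10 lower. Single pools counted too, since fewer pools then have to be apart. Leaving out control pool 1 gave 31 higher genes, and leaving out threat pool 2 gave 29. Leaving out control pool 2 gave 18 lower genes, and leaving out threat pool 1 gave 15. The shares of all genes under these scalings, or with a pool left out, are not given here. These counts therefore have no background beside them and are not read as a trait of proteasome genes. In pooled tissue RNA, fewer cells of a type and less RNA per cell cannot be told apart.

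**Figure D1:**
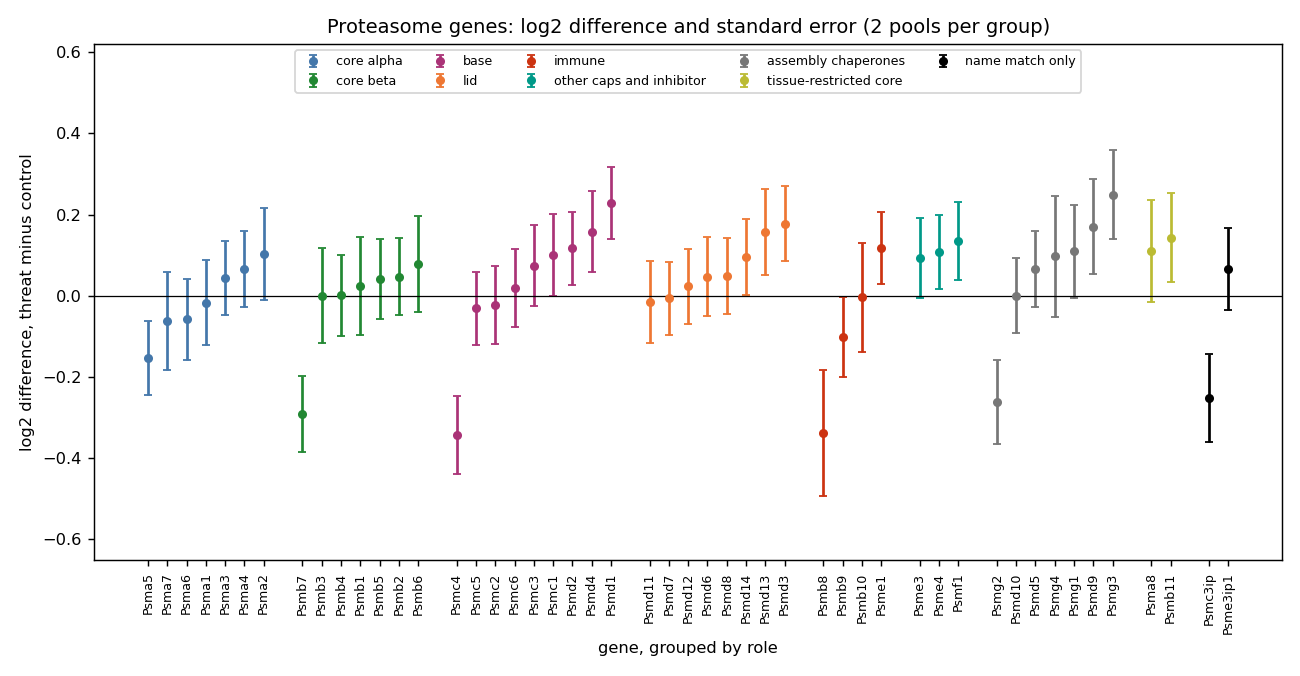
The y axis gives the log2 difference, threat minus control, of each of the 49 genes on the x axis, grouped by role; points are differences and bars are standard errors from limma with 2 pools per group. Most points lie within 0.2 of 0, with Psmc4 at -0.34, Psmb8 at -0.34, Psmb7 at -0.29 and Psmg2 at -0.26 lowest and Psmg3 at 0.25 and Psmd1 at 0.23 highest.

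The alpha subunits of the core, which form its outer rings, were nearly level between the groups. Their 7 differences had a median of -0.02 and ran from -0.15 to 0.10, with 3 above 0 and 4 below. Psma5 measured 11.22 and 11.22 in control and 11.03 and 11.11 in threat (log2 here and below, pool 1 before pool 2), a difference of -0.15 ± 0.09 (SE). Its threat pools lay below its control pools, but a second probe set of Psma5 gave 0.11 with the pools apart the other way. Psma2 measured 11.81 and 11.58 in control and 11.84 and 11.75 in threat, a difference of 0.10 ± 0.11. The groups of Psma2 overlapped. Psma4 measured 11.28 and 11.31 in control and 11.42 and 11.31 in threat, with a difference of 0.07 ± 0.09, so that threat pool 1 stood out and threat pool 2 was level with control pool 2. The groups of Psma1, Psma3, Psma6 and Psma7 overlapped, with differences between -0.06 and 0.04.

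Among the constitutive beta subunits, Psmb7, which carries the trypsin-like site, was the exception to level values on the brightest probe sets. Psmb7 measured 12.25 and 12.20 in control and 11.98 and 11.88 in threat. Both threat pools lay below both control pools, at a difference of -0.29 ± 0.09 (1.22-fold lower, adjusted p = 0.45 in limma's test). It stayed between -0.24 and -0.34 when any 1 pool was left out. Psmb7 had a single probe set, so no second reading of the same transcript was at hand.

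The catalytic partners of Psmb7 did not share its pattern. Psmb5, the chymotrypsin-like subunit, measured 11.67 and 11.53 in control and 11.67 and 11.61 in threat, with a 95% interval of the difference from -0.20 to 0.29. Psmb6, the caspase-like subunit, measured 11.22 and 11.00 in control and 11.27 and 11.11 in threat, with an interval from -0.22 to 0.37. In both, the 2 pools of a group were farther apart than the 2 group means. Psmb2, a structural subunit, measured 10.54 and 10.48 in control and 10.61 and 10.51 in threat, and Psmb1, Psmb3 and Psmb4 differed by at most 0.02 on their brightest probe sets.

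Pools of the same group differed more in the core than the groups did. In 12 of the 14 constitutive core genes, pool 1 lay above pool 2 both in control and in threat, where 36.2% of all genes did so, and 38.8% of the 3209 brighter genes. The median gap was 0.14 between the control pools and 0.10 between the threat pools, against 0.03 for each over all genes. The median difference of threat from control over the same 14 genes was 0.01. Across base and lid, pool 1 lay above pool 2 in both groups in 13 of 17 genes. Whether pools of the same number share a day or cage is not stated in the labels.

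**Figure D2:**
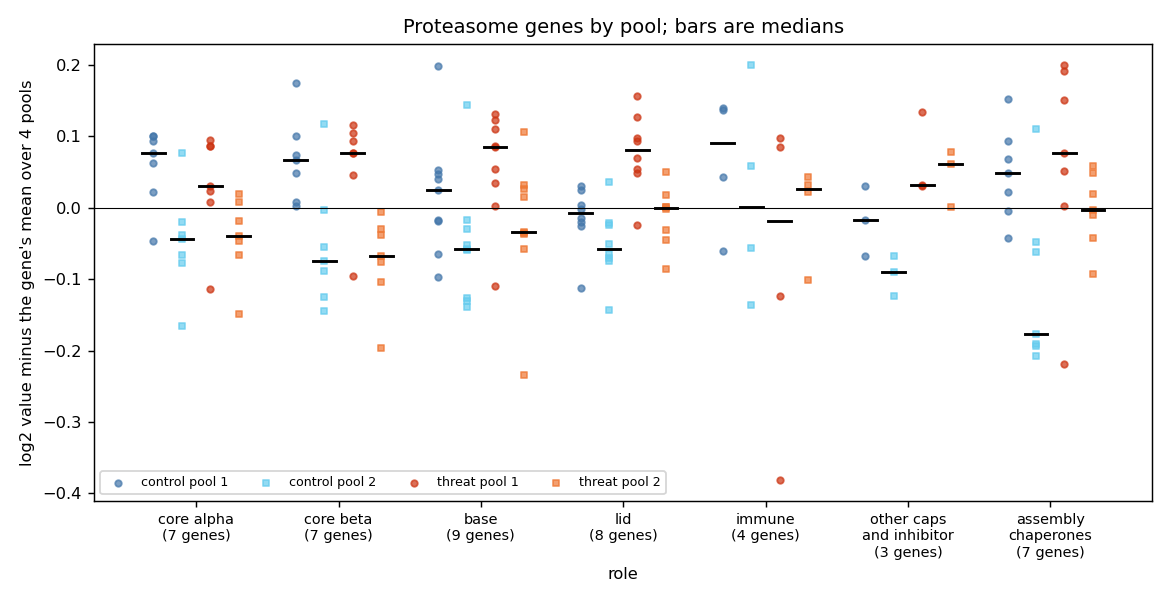
The y axis gives the log2 value of a gene in 1 pool minus its mean over the 4 pools; genes are grouped by role on the x axis, colours and shapes mark pools and black bars are medians over genes. In the core, the medians of control pool 1 and threat pool 1 lie above 0 (0.08 and 0.03 for alpha, 0.07 and 0.08 for beta) and those of both pools 2 below.

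The base of the regulatory particle had a median difference of 0.07 over 9 genes, with 6 above 0 and 3 below. Psmd1, the large scaffold, measured 11.09 and 11.05 in control and 11.31 and 11.29 in threat, a difference of 0.23 ± 0.09 (1.17-fold, adjusted p = 0.47 in limma's test). Both threat pools were above both control pools, and the difference stayed between 0.21 and 0.24 with any 1 pool left out. Psmd4, a ubiquitin receptor, measured 11.21 and 11.09 in control and 11.36 and 11.25 in threat, a difference of 0.16 ± 0.10. The other probe sets of Psmd4 gave 0.05 and -0.09 with overlapping groups. Psmd2, the other scaffold, was at 0.12 ± 0.09, and its pools were apart in the same direction.

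The 6 ATPases of the base, Psmc1 to Psmc6, had a median difference of -0.0022, and 5 of them had overlapping groups with differences from -0.03 to 0.10. Psmc4 was the exception by its brightest probe set, which measured 10.65 and 10.60 in control and 10.34 and 10.22 in threat. The difference was -0.34 ± 0.10 (1.27-fold lower, adjusted p = 0.43 in limma's test), with the pools apart. The other probe set of Psmc4, of similar brightness, measured 10.34 and 10.19 in control and 10.40 and 10.44 in threat, a difference of 0.16 ± 0.10 with the pools apart the other way. The direction for Psmc4 therefore depended on the probe set read.

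The lid had a median of 0.05 over 8 genes. In 3 of them both threat pools lay above both control pools (37.5%, against 26.2% of all genes and 30.8% of the brighter genes), and in none below (18.8% and 17.6%). Psmd3, a scaffold of the lid, measured 10.06 and 10.11 in control and 10.31 and 10.23 in threat, a difference of 0.18 ± 0.09. Psmd13, a structural lid subunit, measured 9.64 and 9.51 in control and 9.81 and 9.65 in threat, a difference of 0.16 ± 0.11. Further probe sets of Psmd13 above the Bacillus maximum gave 0.05 and -0.04 with overlapping groups. Psmd14, the deubiquitinating enzyme of the lid, measured 11.63 and 11.58 in control and 11.75 and 11.65 in threat, a difference of 0.10 ± 0.09. In Psmd13 and Psmd14 the gap between the nearest control and threat pool was small. Psmd6, Psmd7, Psmd8, Psmd11 and Psmd12 had overlapping groups, with differences between -0.02 and 0.05. The adjusted p of every lid gene was at least 0.52 in limma's test.

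The immune subunits did not move as a set. Their median was -0.05 over 4 genes, and it came to 0.0035 without control pool 1 and -0.12 without control pool 2. With the pools apart, 2 of the 4 were lower and 1 higher, where 18.8% and 26.2% of all genes were. Genes with a mean over 5.56, as all 4 had, gave 15.5% lower and 33.1% higher. Psmb8 measured 6.61 and 6.67 in control and 6.09 and 6.51 in threat, a difference of -0.34 ± 0.16 (adjusted p = 0.50 in limma's test). Threat pool 1 was the low one: the difference was -0.13 without it and -0.55 without threat pool 2. The 95% interval, from -0.73 to 0.05, was the widest among the 49 genes. A dim second probe set of Psmb8, with a mean under the highest Bacillus control value of 4.25 that served as a guide to background, gave -0.19 with overlapping groups.

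Psmb9 measured 6.71 and 6.73 in control and 6.55 and 6.69 in threat, a difference of -0.10 ± 0.10. Both threat pools were lower, but threat pool 2 only narrowly, and the difference was -0.03 without threat pool 1. Psmb10 measured 10.13 and 9.86 in control and 10.09 and 9.89 in threat, and its groups overlapped with an interval of the difference from -0.34 to 0.33. Psme1, part of the activator cap, measured 9.93 and 9.93 in control and 10.07 and 10.02 in threat, a difference of 0.12 ± 0.09 with both threat pools higher. The probe set shared by Psme2 and Psme2b measured 9.52 and 9.53 in control and 9.47 and 9.50 in threat, a difference of -0.04 ± 0.09.

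**Figure D3:**
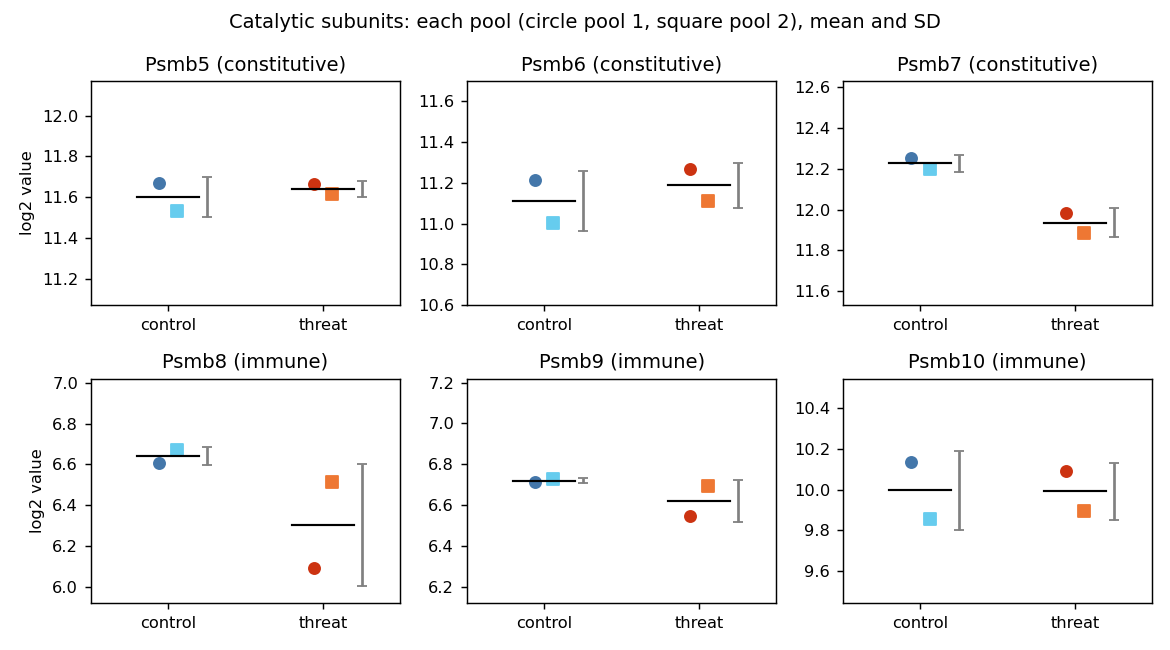
Each panel gives the log2 value of a catalytic subunit in the 4 pools (circle pool 1, square pool 2), with the group mean as a black line and the SD over 2 pools as a grey bar; the upper panels are constitutive subunits and the panel under each is its immune counterpart, and all panels span the same range. Psmb7, Psmb8 and Psmb9 have threat pools below control pools, for Psmb9 only narrowly in threat pool 2, and threat pool 1 is the lowest point for Psmb8.

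Set against the subunit it replaces, Psmb8 and Psmb9 lay lower in threat and Psmb10 higher. Levels of different genes cannot be compared on these arrays, so only the change of the log2 ratio between groups is given. The ratio of Psmb8 to Psmb5 was lower in threat by a log2 change of -0.38, at -0.62 in threat pool 1 and -0.14 in threat pool 2 relative to the control mean. The control pools deviated from that mean by 0.10 either way. The ratio of Psmb9 to Psmb6 changed by -0.18, with threat pool 2 at -0.03, inside the control pools at 0.11 either way. The ratio of Psmb10 to Psmb7 changed by 0.29 in the other direction, at 0.34 and 0.24 in the threat pools, with Psmb10 itself differing by -0.0037 and Psmb7 by -0.29. The mean of the 3 changes was -0.09, and it was 0.02 without threat pool 1 and -0.20 without threat pool 2.

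None of the remaining caps and the inhibitor passed the test. Psme3, the nuclear activator, measured 8.92 and 8.77 in control and 8.93 and 8.96 in threat, a difference of 0.09 ± 0.10, but threat pool 1 was almost equal to control pool 1. Psme4, another activator cap, measured 8.49 and 8.42 in control and 8.54 and 8.59 in threat, a difference of 0.11 ± 0.09. Psmf1, an inhibitor of the core particle in vitro, measured 8.54 and 8.54 in control and 8.74 and 8.60 in threat, a difference of 0.13 ± 0.10. All 3 had both threat pools above both control pools, as 26.2% of all genes did, and the lowest adjusted p among them was 0.62 in limma's test. Their median of 0.11 came to 0.036 under cyclic loess.

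The assembly chaperones, which pair subunits before they enter the particle, held values at both ends. Psmg2 measured 9.45 and 9.41 in control and 9.08 and 9.26 in threat, a difference of -0.26 ± 0.10 (adjusted p = 0.47 in limma's test), which came to -0.17 without threat pool 1. A second probe set of Psmg2, with 8.92 and 8.90 in control and 8.85 and 8.93 in threat, had overlapping groups. Psmg3 measured 8.70 and 8.53 in control and 8.94 and 8.79 in threat, a difference of 0.25 ± 0.11 with both threat pools higher. Psmd9, a chaperone of the base, measured 8.35 and 8.14 in control and 8.48 and 8.35 in threat, a difference of 0.17 ± 0.12, and its groups overlapped narrowly. Psmd5, Psmd10, Psmg1 and Psmg4 differed by at most 0.11 with overlapping groups. The list's median of 0.10 came to 0.23 without control pool 1 and -0.013 without control pool 2. Control pool 2 lay below control pool 1 in all 7 genes, as it did in 39 of the 49 genes and in 10087 of all 18193.

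The tissue-restricted core subunits were near background. Psma8, of the testis proteasome, measured 3.78 and 3.87 in control and 3.79 and 4.08 in threat, all below the largest value of the Bacillus probe sets. Psmb11, of the thymus proteasome, measured 4.10 and 3.97 in control and 4.08 and 4.26 in threat, where threat pool 2 just passed that level. Of the 2 name matches, Psmc3ip measured 6.09 and 5.92 in control and 5.69 and 5.82 in threat. It gave -0.25 ± 0.11 on its brighter probe set and 0.39 ± 0.11 on the other, with the pools apart in opposite directions, and Psme3ip1 gave 0.07 ± 0.10.

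Probe sets of the same gene disagreed in several of the 49 genes, as they also did in many other genes of these arrays. Of the 49 genes, 20 had 2 or more probe sets with a mean above the highest Bacillus control value, and the median distance between a gene's lowest and highest difference was 0.24, against 0.20 over 7119 genes. In 4 of the 20 genes (Psmc3ip, Psmc4, Psmd11 and Psma5) 1 probe set had its threat pools above and another below the control pools. This is 20.0% against 14.3% of genes, and Psmc3ip, which had the widest distance (0.645), is a name match and not a subunit. Differences of both signs were found in 14 of the 20 (70.0%, against 49.8%). Probe sets of a gene can read different ends or isoforms of its transcripts, and their probe sequences were not used here.

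Besides a gene's brightest, 33 proteasome probe sets had a mean above that level, and 19 of their differences were above 0 and 14 below, with a median of 0.04. Of the 33, 6 were lower and 1 higher at an unadjusted p under 0.05, where 6.62% of 27224 single-symbol probe sets above the same level were lower and 6.25% higher. Psmc6, an ATPase, was level on its brightest probe set (10.63 and 10.53 in control, 10.64 and 10.55 in threat). A second gave 9.56 and 9.48 in control against 9.21 and 9.13 in threat, a difference of -0.35 ± 0.10, and another gave -0.35 ± 0.10 as well. Psmd6 was level on 1 probe set (0.05 ± 0.10), and the other, at 10.81 and 10.75 in control against 10.49 and 10.40 in threat, gave -0.33 ± 0.09. Both threat pools lay below both control pools in each of these 3 lower readings.

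Among core genes, second readings went both ways: those of Psma5, Psma7 and Psmb3 were 0.11, 0.12 and 0.05, and that of Psma6 was -0.0055. The brightest probe set of Psmb1 gave 0.02 ± 0.12, while the other 2 were lower with the pools apart. The middle one gave -0.30 ± 0.13. The dimmest of the 3 measured 6.53 and 6.58 in control and 6.13 and 6.16 in threat, a difference of -0.41 ± 0.09. Psmb4 gave 0.0008 on its brightest probe set and -0.25 ± 0.09 on a second, with 11.53 and 11.51 in control against 11.29 and 11.24 in threat. A dimmer probe set of Psmd7 gave -0.33 ± 0.10, where the brightest gave -0.0066. Psmd11, with 7 probe sets above the control level, ran from -0.20 to 0.22. The adjusted p of all these probe sets was at least 0.42 in limma's test. Probe sets whose name ends in _x_at, which share probes with other transcripts, were lower with the pools apart in 38.2% of all 1575 such probe sets, against 17.1% of those ending in plain _at. The second probe set of Psmb4 and the middle one of Psmb1 are of that class. The dimmest of Psmb1, the lower one of Psmd7 and 1 of the lower ones of Psmc6 end in plain _at.

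**Figure D4:**
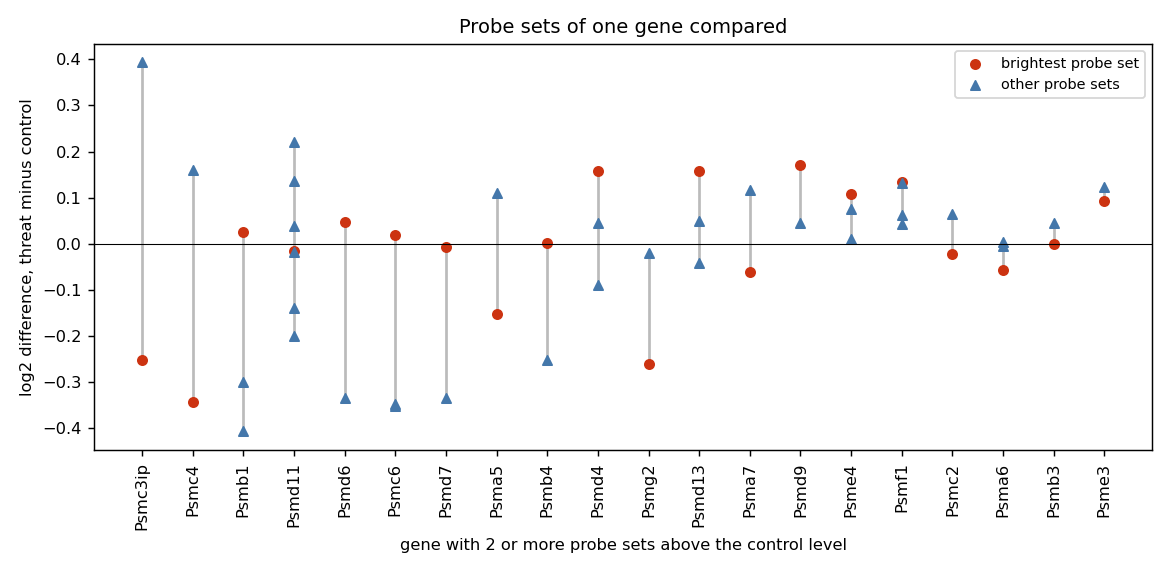
The y axis gives the log2 difference, threat minus control, of every probe set with a mean above the highest Bacillus control value, for the 20 genes on the x axis with 2 or more of them; circles are the brightest probe set and triangles the others, joined by a grey line. For Psmb1, Psmd6, Psmc6, Psmd7 and Psmb4 the circle lies near 0 and a triangle between -0.25 and -0.41.

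Genes that work with the proteasome differed as little. Among partners and maturation factors, 9 of 11 were measured, with a median of 0.0071. At an unadjusted p under 0.05, 1 was higher and 0 lower, where 4.9% and 5.76% of all genes were. Ecpas, an adaptor that binds the particle, measured 8.33 and 8.31 in control and 8.55 and 8.68 in threat, a difference of 0.30 ± 0.10 (adjusted p = 0.45 in limma's test). Usp14, a deubiquitinating enzyme on the regulatory particle, was at -0.21 ± 0.10, Ipo9, an importin, at 0.11 ± 0.09, and Txnl1, a thioredoxin-like partner, at -0.10 ± 0.09. Pomp, the maturation factor of the core, was at 0.0071.

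Regulators of subunit genes had a median of 0.03 over 7 of 8 genes, with none at an unadjusted p under 0.05. Nfe2l1, the factor that raises subunit genes when the proteasome is inhibited, measured 10.33 and 10.34 in control and 10.42 and 10.36 in threat, a difference of 0.06 ± 0.09. Ngly1, the glycanase that activates it, was at 0.08 ± 0.09. Nfe2l2 at -0.22 ± 0.29 and Nfe2l3 at 0.24 ± 0.31 had the widest spread between pools on this list.

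In the list of ubiquitin and delivery genes, 14 of 21 were measured under a single symbol, with a median of 0.09. Both threat pools were above both control pools in 8 (57.1%, against 26.2% of all genes) and below in 1 (7.14%, against 18.8%). Genes with a mean over 5.56, as all 14 had, gave 33.1% above and 15.5% below. The 3209 brighter genes gave 30.8% and 17.6%. At an unadjusted p under 0.05 there were 0 higher and 1 lower on this list. Ubqln2, a shuttle that brings ubiquitinated proteins to the proteasome, measured 12.22 and 12.42 in control and 11.92 and 12.05 in threat, a difference of -0.33 ± 0.11 (adjusted p = 0.45 in limma's test). Zfand2a, a stress-induced partner of the particle, was at 0.20 ± 0.09, and the ubiquitin ligases Ube3c and Stub1 were at 0.19 ± 0.10 and 0.13 ± 0.09.

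Inducers of the immune subunits and antigen processing genes had a median of -0.10 over 15 of 16 genes, with 6 above 0 and 9 below. Both threat pools lay below both control pools in 2 (13.3%, against 18.8% of all genes) and above in 1 (6.67%, against 26.2%). At an unadjusted p under 0.05 there were 0 higher and 1 lower, where 4.9% and 5.76% of all genes were. The lower gene was Irf1, a transcription factor that drives immune subunit genes. It measured 7.66 and 7.63 in control and 7.39 and 7.40 in threat, a difference of -0.25 ± 0.09 (adjusted p = 0.45 in limma's test). H2-D1, an MHC class I chain, was at -0.39 ± 0.18, Erap1, a peptide-trimming enzyme, at -0.23 ± 0.14, and B2m, the class I light chain, at -0.22 ± 0.15. Ifng itself and Nlrc5, the class I transactivator, lay below the highest Bacillus control value in every pool. The list's median deviation from the 4-pool mean was -0.16 in threat pool 1 and 0.05 in threat pool 2, the pool order also seen for Psmb8.

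Every list of cell type markers had a median difference below 0, though it was only -0.03 for neurons and -0.09 for astrocytes. No marker passed the adjusted test, the lowest adjusted p being 0.32 in limma's test, and of all genes 18.8% had both threat pools below both control pools. Of 11 microglial markers, 5 were placed so (45.5%) and none the other way. Their summed level, the log2 of the sum of their linear values, ran from 13.64 to 13.75 in control and 13.43 to 13.59 in threat. It was lowest in threat pool 1. Such a sum is weighted to the brightest markers. Of 10 endothelial markers, 5 lay lower with the pools apart (50.0%), with a summed level of 11.20 to 11.54 in control and 11.03 to 11.26 in threat. All 8 oligodendrocyte markers lay lower, with a summed level of 14.27 to 14.60 in control and 13.45 to 13.73 in threat. Of 10 neuronal markers, 5 also lay lower with the pools apart (50.0%) and 1 higher. Their summed level was 15.35 to 15.49 in control and 15.34 to 15.38 in threat. Pools were apart and lower in 4 of 8 astrocyte markers (50.0%), with 1 higher. The same placing was found in 4 of 8 markers of smooth muscle and meninges, 5 of 6 of choroid plexus and 3 of 5 of blood. Median differences were -0.14 for microglia, -0.28 for endothelium, -1.06 for oligodendrocytes and -0.03 for neurons, and -0.09 for astrocytes, -0.66 for smooth muscle and meninges, -0.72 for choroid plexus and -0.61 for blood. Every marker on these lists exceeded the Bacillus maximum in at least 1 pool. The part of these cell types in the values of Psmb8 and Psmb9 was not tested.

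**Figure D5:**
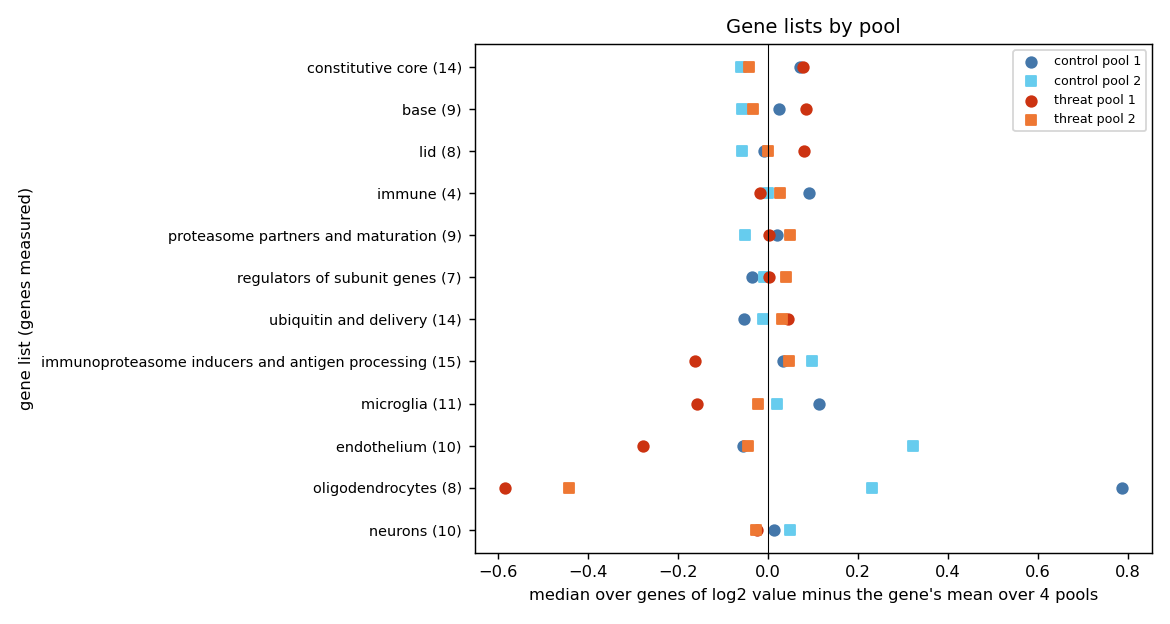
The x axis gives, for each gene list on the y axis, the median over its genes of the log2 value minus the gene's mean over the 4 pools; colours and shapes mark pools. Threat pool 1 is lowest for the inducer and antigen processing list (-0.16), microglia (-0.16), endothelium (-0.28) and oligodendrocytes (-0.58), while for the constitutive core it lies at 0.08 beside control pool 1 at 0.07.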

How the data were processed

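The authors deposited log2 expression of 4 Affymetrix MOE430 2.0 arrays, with 1 value for each probe set. RMA is named in the submitters' processing notes, while its version and settings are not given in the sources used. Values ran from 2.51 to 14.37, with array medians of 5.53 to 5.58 and correlations between arrays of 0.9942 to 0.9961. After 64 control probe sets were left out, 45037 remained, 34945 of them with 1 symbol in the platform annotation, 932 with several and 9160 unnamed here. The Entrez IDs of all 49 members were found in RefSeq (GRCm38.p6). Threat was compared with control by lmFit and eBayes (limma 3.58.1, R 4.3.3), 2-sided and with Benjamini-Hochberg adjustment across the 45037; the script was tested on simulated data. The fit had 2 residual degrees of freedom and a median standard error of 0.108. The smallest 2-sided p that exact permutation of these pools allows is 0.333, and no permutation test is given. Precision is limited by the number of arrays. P-values and standard errors rest on the spread between pools of 5 mice, which eBayes draws toward a value shared across probe sets. They do not measure the spread between single mice. The 27 Bacillus control probe sets (3.01 to 4.25) guided the background level. The members, lists and tests were chosen with earlier results of these data known. Every member is named. The 4 pool values are given for immune and catalytic subunits, for the 3 largest differences of each role list and for members at an unadjusted p under 0.05. The 4 largest of each pathway list are named. Further probe sets were named after their values were seen. Alternatives were another scaling, variance model, probe set choice or filter, a pool-number block and leaving out each pool.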

Additional observations from a re-analysis of the deposited data

How the results depend on the processing

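At an adjusted p of 0.05 limma called no probe set under any alternative (0 of 45037 with all pools, 4774 at an unadjusted p under 0.05, and 2922 to 4037 with 1 pool left out). The medians of the core, base, lid and immune lists moved by less than the spread between pools under every other scaling, filter and choice of probe set. With 1 pool left out, the median ran from 0.0011 to 0.14 for the base, from -0.12 to 0.0035 for the immune list, from -0.013 to 0.23 for the chaperones, from 0.02 to 0.09 for the lid and from -0.06 to 0.07 for the core. The median of the other caps and inhibitor was 0.036 under cyclic loess. Genes with the pools apart and threat higher numbered 20 after median centring and 14 to 31 with 1 pool left out; those with threat lower numbered 7 to 18 with 1 pool left out, and 11 when the probe sets above the Bacillus maximum were averaged, an alternative chosen after seeing the data. No share of all genes under the same alternatives is given beside these counts. Psmc4 reversed to 0.16 on its second brightest probe set, a choice under which 13 of the 49 genes had the other sign. With 1 pool left out, 7 to 10 genes had the other sign. Among the 4 genes at an unadjusted p under 0.05, that mark was lost for Psmg2 with the replicate block (-0.26) and median centring (-0.23) and for Psmd1 under cyclic loess (0.21); it was lost for all 4 without control pool 1, for all but Psmc4 without control pool 2, for Psmd1 and Psmg2 without threat pool 1, and for all but Psmg2 without threat pool 2. It was gained by Psmg3 with the replicate block (0.25) and median centring (0.28), and by Psmb8 without threat pool 2 (-0.55). Background correction and a slide block were not run, since no scanner files were used here. The replicate block, with the pool number from the labels, kept the count of calls at 0 and gave 6054 probe sets at an unadjusted p under 0.05. Deviations of same-numbered pools correlated across probe sets (r = 0.33), but 2 pairs that share a number are not shown to be paired.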
